A study of Homo sapiens with 8 samples.

Results

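Replication and mitosis genes were examined in MDA-MB-231 cells with and without ARID1A for H3K27ac, the acetylated form of a lysine in the histone H3 tail that is found at promoters and enhancers in use. The set held 38 of 19970 protein-coding genes on the autosomes and X. The set was chosen by the presence of acetylated regions around such genes in control cells alone, with earlier results of these files in view. Counts of regions present in 1 genotype therefore describe the set and support nothing. The peak edges and lengths given below come from the same lists and are descriptions too. An acetylated region was given to a gene if it lay within the RefSeq span of the gene or up to 100 kb beyond it and no other protein-coding gene was nearer. Of 48662 regions in the data, 80 were given to the 38 genes. MDA-MB-231 is an established human line of triple-negative breast cancer. ARID1A belongs to the SWI/SNF remodelling complex, where it contacts DNA. The study had 4 groups of 2 libraries: input and immunoprecipitate of control cells, and input and immunoprecipitate of ARID1A knockout cells. The labels gave no treatment, and left unsaid whether knockout cells were clonal or pooled, and whether replicates were separate cultures. The titles and characteristics named H3K27ac, whereas the extraction protocol named an H3K4me3 antibody, so the word acetylated rests on the former.

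A cell about to divide loads the MCM helicase onto origins with the help of ORC, CDC6 and CDT1, activates it with CDC45 and GINS, copies its DNA and then separates the copies under the control of CDK1 with its cyclins and of the Aurora and Polo kinases. Transcription of the replication genes is largely driven by E2F factors, and that of the mitotic genes by complexes that include FOXM1 and bind CHR elements, often beside CCAAT boxes. Tumour cell lines in culture divide all the time and use both programmes.

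Each genotype had 1 peak list, named as immunoprecipitate against input of that genotype, with 39797 control and 42552 knockout peaks on these chromosomes. Whether 1 or both replicates entered a list was not stated. With 1 list each there was 1 value per genotype, no spread between replicates and no test of the genotype. Every difference below is one between the lists. The knockout list was the stronger by the authors' values, with a median −log10 q of 15.0 against 10.6 and a median pileup of 32.0 against 22.7. The ARID1A gene had 7 control and 6 knockout peaks within 10 kb, which does not check the deletion, since a peak list does not show a lost protein. A gene-end peak in both lists was found at all 7 marker genes of mesenchymal-like breast cancer lines, such as VIM and CD44, and at 3 of 5 luminal markers (GATA3, FOXA1 and KRT8). ESR1, the estrogen receptor gene, had one in knockout alone and PGR, the progesterone receptor gene, in neither. Markers of blood (1 of 4, SPI1), liver (1 of 2, APOA1) and endothelium (0 of 2) were mostly without one.

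The promoters of 4 members at which the start peak reached deeper into the gene in control are shown first. The results below turn on the stretch that follows them. The sequences are the 250 bases before the start from RefSeq on GRCh38.p14, 5′ to 3′ along the gene. They lie at chr2:10122318-10122567 on the plus strand (RRM2), chr10:60778081-60778330 on the plus strand (CDK1), chr17:40417897-40418146 on the minus strand (TOP2A) and chr3:48188418-48188667 on the minus strand (CDC25A). Capitals mark matches, on either strand, to an E2F motif (TTTCCCGC, TTTCGCGC, TTTGCCGC or TTTGGCGC), to the CHR motif TTTGAA and to CCAAT.
RRM2: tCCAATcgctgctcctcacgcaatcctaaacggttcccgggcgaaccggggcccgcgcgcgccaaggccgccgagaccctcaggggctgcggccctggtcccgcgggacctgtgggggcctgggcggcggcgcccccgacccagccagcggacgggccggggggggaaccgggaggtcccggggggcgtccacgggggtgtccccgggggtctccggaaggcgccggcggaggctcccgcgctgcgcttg
CDK1: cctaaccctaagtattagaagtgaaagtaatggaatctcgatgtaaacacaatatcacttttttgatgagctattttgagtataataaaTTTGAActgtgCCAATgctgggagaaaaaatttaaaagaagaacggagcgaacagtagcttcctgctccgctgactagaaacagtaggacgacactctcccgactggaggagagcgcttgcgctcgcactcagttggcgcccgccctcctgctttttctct
TOP2A: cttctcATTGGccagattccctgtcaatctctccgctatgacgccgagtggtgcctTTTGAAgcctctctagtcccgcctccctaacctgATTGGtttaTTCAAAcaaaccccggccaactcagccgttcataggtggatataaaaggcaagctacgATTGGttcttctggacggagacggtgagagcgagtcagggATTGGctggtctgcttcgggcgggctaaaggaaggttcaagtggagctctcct
CDC25A: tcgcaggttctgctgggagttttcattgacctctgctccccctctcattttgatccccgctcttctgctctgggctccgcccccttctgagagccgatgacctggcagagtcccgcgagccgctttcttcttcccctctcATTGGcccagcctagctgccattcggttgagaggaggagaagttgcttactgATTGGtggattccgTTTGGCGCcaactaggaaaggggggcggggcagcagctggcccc
The TOP2A promoter held 4 CCAAT and 2 CHR matches, and the CDC25A promoter 1 E2F and 2 CCAAT matches. That of CDK1 held 1 CHR and 1 CCAAT match, and that of RRM2 a single CCAAT match. None of the matches overlapped another in these stretches.

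The promoter table had entries for 32 of the 38 members, and not for MCM4, MCM5, CDK2, CCNE2, AURKA and FOXM1. Over windows from 250 bases before to 50 bases after any listed start, 14 of 32 members (43.8%) held an E2F match, against 5.41% of 15812 protein-coding genes in the table. They were MCM2, MCM3, MCM6, MCM7, CDC6, CDT1, GINS2, PCNA, POLA1, POLE, TYMS, CDK1, CDC25A and E2F1. The match of CDK1 lay outside the stretch printed above. CCAAT was found in 28 of 32 (87.5%, against 42.1% of genes) and CHR in 8 of 32 (25%, against 15.8%), the latter at RRM1, CDK1, CCNB2, CDC25C, CDC20, PLK1, TOP2A and MKI67. These are letter matches only. All 32 had a peak within 1 kb of the start in both lists, against 62.0% of genes in the table.

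Gene ends, meaning the outer limits of each RefSeq span with 1 kb on each side, carried peaks in both genotypes at nearly the whole set. Both lists had such a peak for 37 of 38 members, against 61.1% of all genes. None of the members had one in control alone, against 1.84% of genes, or in knockout alone, against 1.72%. The exception was ORC1, which encodes the largest subunit of the origin recognition complex. Neither of its outer ends had a peak, but its listed start lies within the span and had one in both lists, with a fold enrichment over background of 6.83 in control and 8.04 in knockout. Members were given 44 regions at gene ends. Many of these overlapped a neighbouring gene as well and counted for each gene, as at MCM7, CDC20 and TK1. Of the 44, 41 were shared, meaning that peaks of both lists overlapped by at least 1 bp, against 91.9% of end regions of all genes. The other 3 were control-only, against a background of 4.37%, and none was knockout-only, against 3.78%. They were weak, with folds of 2.93 at CCNA2 (cyclin A2), 2.92 at CDC25A (the phosphatase that activates CDK2) and 2.53 at CDT1 (the licensing factor). The CCNA2 region lay inside that gene and over 1 kb from its own ends. It was an end region because the end of another gene was 0.70 kb away.

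Peaks at the starts differed widely in strength among members. Fold enrichment is the authors' value within 1 list, and its percentile in that list is given beside it. The strongest control start peak was that of CDC25C, a phosphatase that activates CDK1, at fold 24.5 (percentile 99.6), and it was at 21.5 (96.3) in the knockout list. CDT1 followed with 17.3 (96.4) in control and 24.4 (97.9) in knockout. The weakest was that of MCM10, a helicase activator, at 3.01 (16.7) in control and 4.07 (36.4) in knockout. The median percentile over 32 members was 68.0 among control peaks and 79.7 among knockout peaks, beside 80.5 and 83.9 over all 9800 genes with a start peak in both. In each list the members' median was thus the lower.

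The start peak reached farther into the gene in control cells than in knockout cells at most members. Only the peak at the start was measured, and any further peak deeper in the gene was left out. The edge on the gene side lay farther from the start in control at 26 of 32 members, against 58.5% of all genes with a start peak in both lists. At 8 members it lay over 1 kb farther in control (25%), against a background of 10.6%. At 0 of 32 did it lie over 1 kb farther in knockout, against 2.46%. For genes with like numbers of neighbours the 1 kb shares were 10.1% and 2.63%. The median distance to this edge was 2.06 kb in control and 1.63 kb in knockout for the members, and 1.42 and 1.29 kb for all genes. By these medians the members' start peaks were the deeper in each list. The 1 kb shares were weighted for density alone, and not for this depth or for gene span. On the outer side, away from the gene, the control edge was the farther at 19 of 32 members (59.4%), against 50.2% of all genes, and the median difference was 0.03 kb. It lay over 1 kb farther in control at 2 members, against 3.73% of genes: MCM3, by 1.34 kb, and TK1, by 2.10 kb. At 0 members did it lie over 1 kb farther in knockout, against 1.6%.

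The 8 members included both replication and mitotic genes. The largest difference was at TOP2A, the topoisomerase that untangles sister chromatids, where the control peak reached 5.92 kb into the gene and the knockout peak 3.76 kb. At CDK1, the main mitotic kinase, the edges were at 6.82 and 5.16 kb. A further knockout peak there ended at 60785485 on chromosome 10, beyond the end of the control start peak at 60785148. The control edge at CDK1 was thus the farther for the start peak alone. AURKB, the kinase of the chromosomal passenger complex, had edges at 4.02 and 2.42 kb, and CCNA2 at 3.66 and 2.14 kb. Among the replication genes, CDC6, which loads MCM, had edges at 3.04 and 1.46 kb. A further knockout peak lay deeper in CDC6, within the stretch of its control peak. RRM2, the regulated subunit of ribonucleotide reductase, had edges at 4.37 and 2.97 kb. MCM7, a helicase subunit, had edges at 3.29 and 1.89 kb, and CDC25A at 2.91 and 1.82 kb. The members with the edge farther in knockout were MCM10 (0.64 kb in control, 0.95 kb in knockout), CCNB1 (2.68 and 2.87 kb), PCNA (0.51 and 0.60 kb), CCNE1 (0.67 and 0.75 kb), RRM1 (1.89 and 1.90 kb) and CDC25C (1.26 kb in both, to 2 decimals).

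**Figure D1:**
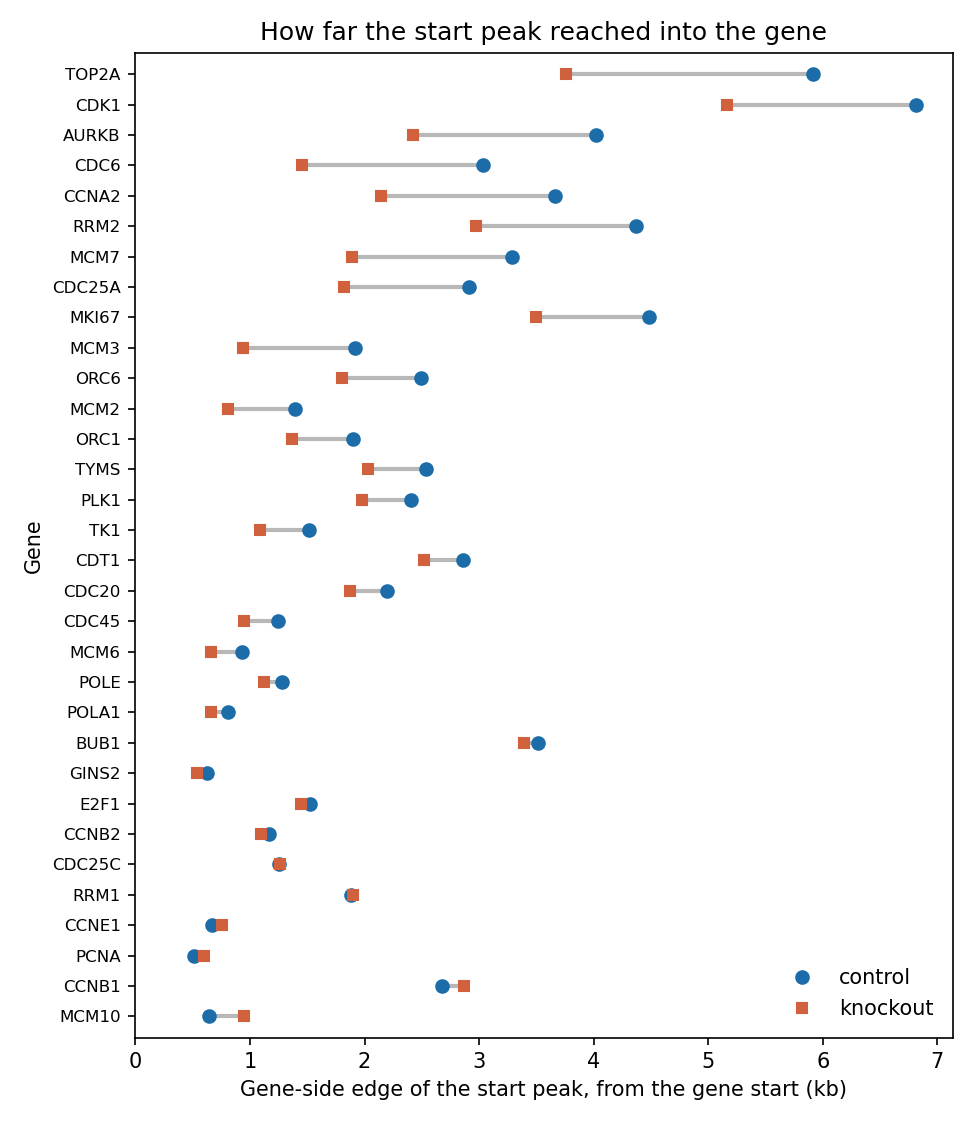
Distance in kb from the gene start to the gene-side edge of the start peak, for 32 members, with control as circles and knockout as squares, 1 value per genotype. The circle lies to the right of the square at 26 members, by the most at TOP2A (5.92 against 3.76 kb).

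Acetylated length inside the members was also greater in control. It is not a separate result. It includes the inner parts of the start peaks described above and the control-only regions by which the set was chosen. Summed over the spans and leaving out 1 kb at each end, control peaks covered 93.3 kb and knockout peaks 50.1 kb of the 38 genes, a ratio of 1.86. The ratio was 1.03 over all genes and 1.13 over other genes of like span. It was 1.28 and 1.24 in the second and middle span bins, which held 11 and 12 of the members. Of 34 members with any such length, 30 had more in control and 4 more in knockout, against a background of 56.4% of genes with more in control. For other genes of like density the share was 56.3%, and for those of like span 60.1%. The widest gap in kb was at RRM2, with 6.11 kb in control and 1.97 kb in knockout. It was followed by CDC25A (4.82 and 0.82 kb), TOP2A (6.42 and 2.76 kb) and TK1, thymidine kinase of the salvage pathway (5.04 and 1.67 kb). AURKA, the centrosomal Aurora kinase, had the greatest control length (7.59 and 4.59 kb). The 4 members with more in knockout were CCNB1 (1.68 and 1.87 kb), CCNE2 (1.17 kb in both, to 2 decimals), CDC25C (2.15 and 2.32 kb) and FOXM1 (0.09 and 0.23 kb). CCNE1, GINS2, MCM10 and MCM6 had none in either list.

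**Figure D2:**
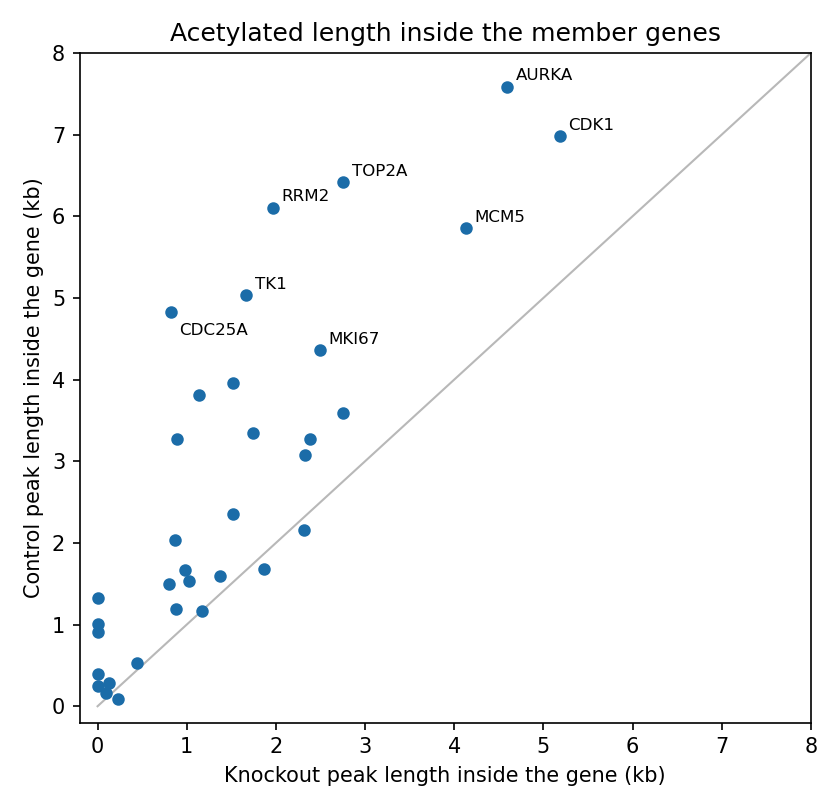
Peak length in kb inside each member, over 1 kb from its ends, in control (vertical axis) against knockout (horizontal axis). Each point is 1 of 34 genes, the line marks equal lengths, and genes over 4.3 kb in control are named. 30 points lie above the line.

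Without the regions found in control alone the difference was smaller and had the same direction. With peaks of shared regions only, the members had 77.4 kb in control and 49.6 kb in knockout, a ratio of 1.56, and 28 of 33 had more in control. The ratio over all genes was then 1.06. When both lists were limited to peaks whose −log10 q was 5 or more, the ratio was 1.47 for the members and 0.98 for all genes, and 26 of 33 members had more in control. With the 30000 peaks of highest fold from each list it was 1.73 and 1.06. Peak edges depend on where the caller ends a stretch, and the lists differed in signal strength, whose part in the difference was not tested.

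Away from gene ends, 36 regions were given to 17 members, and the other 21 members had none. Of these 36, 17 were control-only (47.2%, exact 95% interval 30.4 to 64.5), 3 were knockout-only (8.33%, 1.75 to 22.5) and 16 were shared. Over all genes 18.3% of such regions were control-only and 23.4% knockout-only. Intervals cover counting error only, and regions of 1 gene share their source. The control-only regions lay at 11 members and, except for 1 beside CDK1, inside the genes. Inside genes, 16 of 25 regions of the members were control-only (64.0%, 42.5 to 82.0) and 1 was knockout-only, against 20.7% and 22.9% over all genes. Outside them, 1 of 11 was control-only (9.09%), 2 were knockout-only (18.2%) and 8 were shared (72.7%), near the 14.4%, 24.3% and 61.3% over all genes.

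**Figure D3:**
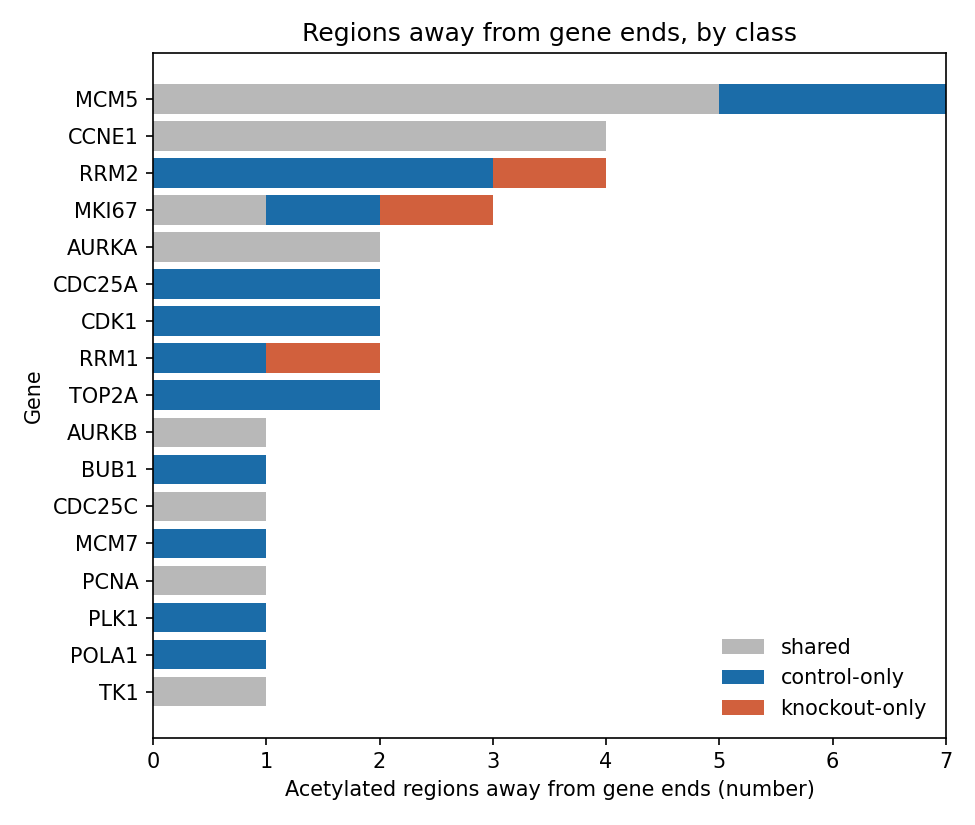
Number of acetylated regions away from gene ends at each of the 17 members that had any, coloured by class. MCM5 had the most (7, of which 5 were shared), and RRM2 had 3 control-only regions.

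Among the licensing and helicase genes, 3 of 8 regions were control-only. MCM5, a helicase subunit on chromosome 22 (35400140 to 35455031), had 7 regions, the most of any member. Its control-only regions lay at 35418085 to 35418595 (fold 2.75) and 35428811 to 35429681 (2.72), and the other 5 were shared. MCM7 had a control-only region at 100094122 to 100095101 on chromosome 7 (fold 2.62). At 1.39 kb from the nearest gene end it was the region just outside the end window, and that of CDT1, at 0.91 kb, was the one just inside. The farthest region given to any member lay 49.0 kb from its gene, CCNE1, so none was near the limit of 100 kb. MCM2, MCM3, MCM4, MCM6, MCM10, ORC1, ORC6, CDC6, CDT1, CDC45 and GINS2 had no region away from gene ends.

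Nucleotide supply and DNA synthesis genes held 5 control-only regions. RRM2 (chromosome 2, 10122568 to 10211010 in the RefSeq table, 88.4 kb) had 3, at 10129414 to 10129743 (fold 2.88), 10132324 to 10133560 (2.72) and 10169771 to 10170938 (3.67). A knockout-only region lay 9.14 kb beyond it (10220148 to 10221667, fold 3.74). RRM1, the large reductase subunit, had 1 region of each kind: control-only at 4097692 to 4098394 on chromosome 11 (2.63) and knockout-only at 4135145 to 4135626 (3.01). POLA1, the catalytic subunit of polymerase alpha, had 1 control-only region (chromosome X, 24869712 to 24870722, fold 2.99), 175 kb from the nearest knockout peak. TK1 and the sliding clamp gene PCNA had 1 shared region each, and TYMS and POLE had none.

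Cyclin, CDK and CDC25 genes had 4 control-only and 5 shared regions. CDK1 had 2 control-only regions on chromosome 10, at 60787717 to 60788882 (fold 2.76) and, 2.99 kb beyond the gene, at 60797841 to 60798316 (2.85). CDC25A had 2 on chromosome 3, at 48172631 to 48173089 (2.35) and 48179825 to 48182279 (3.31). All 4 regions of CCNE1, the cyclin that partners CDK2 at the start of replication, lay outside the gene and were shared. The strongest of them had a fold of 9.08 in control and 11.8 in knockout. The single region inside CDC25C was shared (4.66 and 10.5), and CCNA2, CCNB1, CCNB2, CCNE2 and CDK2 had none.

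Of the mitotic genes, TOP2A had 2 control-only regions on chromosome 17 (40405081 to 40405639, fold 2.65, and 40408910 to 40409848, 2.37). MKI67, which encodes the proliferation antigen Ki-67, had 1 region of each class, of which the control-only one (chromosome 10, 128117114 to 128117991, 3.39) lay inside the gene. PLK1, the Polo kinase, had a control-only region of 259 bp (chromosome 16, 23682563 to 23682821, fold 3.15). BUB1, a spindle checkpoint kinase, had one of 758 bp (chromosome 2, 110662519 to 110663276, 2.51). AURKA had 2 shared regions and AURKB 1. CDC20, an activator of the anaphase-promoting complex, and the transcription factor genes E2F1 and FOXM1 had none.

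The genotype-only regions of the members were weak. The 17 control-only regions had folds of 2.35 to 3.67 (median 2.75), at percentiles 0.66 to 31.3 of the control list, and −log10 q values of 1.22 to 4.26. Over all genes the median fold of control-only regions was 2.96, at percentile 15.5. A knockout peak lay within 5 kb of 9 of the 17 (52.9%), against 30.6% of control-only regions of all genes. None of the 20 genotype-only regions was strong, meaning in the upper 50% of its list by fold and over 1 kb from any peak of the other genotype, against 3.38% (control-only) and 7.04% (knockout-only) over all genes.

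The excess of control-only regions turned with stricter peak sets. With a −log10 q of at least 5, which took more control than knockout peaks, 1 of 15 regions was control-only and 6 were knockout-only. The shares for genes of like density were 10.5% and 28.9%. Of the genotype-only regions described above, 2 knockout-only and 0 control-only ones reached that q. The others so classed were shared before, and the peak of 1 list fell under the limit. With the 30000 peaks of highest fold from each list, 3 of 17 were control-only and 5 knockout-only, beside 20.1% and 19.7%. These too included regions that were shared before. With the nearest gene taken by distance to a gene end, 16 of 39 were control-only and 6 knockout-only (41.0% and 15.4%), so the difference between the shares fell from 38.9 to 25.6 percentage points.

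Weighting for gene density left the comparison shares almost as they were. The number of protein-coding genes within 500 kb had a median of 9 for the members and 13 for all genes, and 21 of 38 members fell in the lower 2 of 5 bins. Over the other genes, control-only shares ranged from 16.0% in the sparsest bin to 22.8% in the densest, and knockout-only shares from 28.9% to 15.5%. Weighted by the members' regions per bin, genes of like density had 18.4% control-only and 23.4% knockout-only regions. For regions inside genes they had 21.3% and 21.8%. Genes of like span had 26.7% and 18.7% inside. Inside other genes the control-only share was 51.2% (22 of 43) in the shortest of 5 span bins, where the members had no such region. It was 31.9% in the second bin and 31.0% in the middle one, and was lowest in the longest. Regions of like span and strength together had 41.0% and 25.4% inside, beside the members' 64.0% and 4%.

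A control-only region away from gene ends was found at 11 of 38 members (28.9%), against 20.3% of all genes and 21.6% of genes of like density. A knockout-only region was found at 3 of 38 (7.89%), against 21.2% and 23.6%. The members had 0.95 regions per gene in all, against 1.60 over all genes and 1.77 in genes of like density. Control-only regions numbered 0.45 per member and 0.29 per gene overall. The order was the other way for shared regions (0.42 and 0.93) and for knockout-only regions (0.08 and 0.38).

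**Figure D4:**
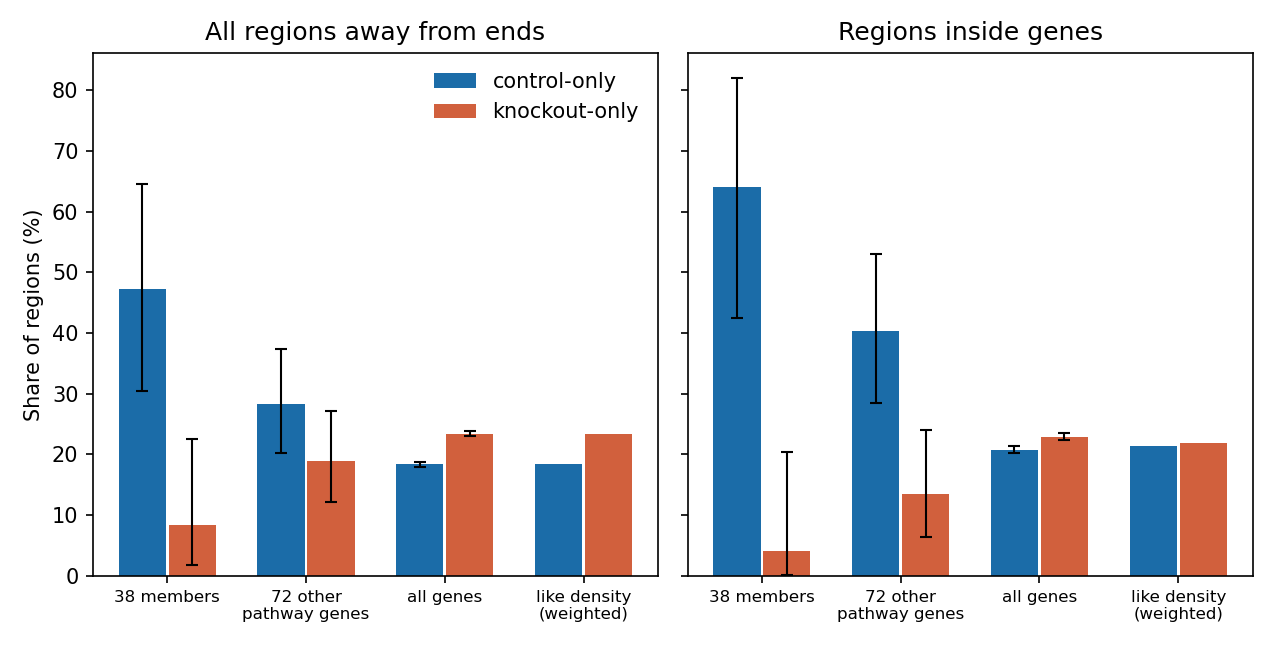
Control-only and knockout-only share, in percent, among all regions away from gene ends (left) and those inside genes (right). Bars on the first 3 sets are exact 95% intervals, and the last set is a weighted share without one. Control-only shares were 47.2% (left) and 64.0% (right) for the members and 18.3% and 20.7% for all genes.

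A list of 72 other genes of replication and mitosis, such as the polymerase delta, RFC and kinesin genes, was described in the same way. Each of the 72 carried a gene-end peak in both genotypes. Of their 117 regions away from gene ends, 33 were control-only (28.2%, 20.3 to 37.3) and 22 knockout-only (18.8%). Inside genes the counts were 27 and 9 of 67 (40.3% and 13.4%), and outside them 6 and 13 of 50 (12% and 26%, against 14.4% and 24.3% over all genes). Counted over genes, a control-only region was found at 30.6% of the 72, a share no lower than the members' 28.9%, and such regions numbered 0.46 per gene, against 0.45 per member. A knockout-only region was found at 25% of the 72. The gene-side edge of the start peak lay farther in control at 44 of 58 of these genes (75.9%), beside 81.3% of members and 58.5% of all genes. It lay over 1 kb farther in control at 8 of the 58 (13.8%) and farther in knockout by that much at 0. Peak length inside the genes was 178 kb in control and 130 kb in knockout, a ratio of 1.37, with more in control at 47 of 69.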

How the data were processed

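The data were 2 deposited peak lists, 1 per genotype, from a study of 8 ChIP-seq libraries. Every peak name opens with the code A-1 in the control list and B-2 in the knockout list. The meaning of the codes was not stated, so a list may rest on a single replicate or on both. The submitters' processing notes name Bowtie2 2.3.5.1, MACS2 2.2.6 and hg38. For options, read filters, library depths and the pooling of replicates, the entry is: not given in the sources used here. For each peak the authors listed a position, a width, a pileup (a coverage signal), the −log10 of a q-value and a fold enrichment over background (a ratio), per the file headers; their −log10 p-value was not used.

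Peaks overlapping by at least 1 bp were merged into regions (Python 3.11.15, numpy 2.4.6, pandas 2.3.3, scipy 1.17.1, checked on simulated peaks, and matplotlib 3.10.9). 6 control and 8 knockout peaks on scaffolds outside the assembled chromosomes were left out. Distance was to the gene span, and tied genes kept the region. RefSeq spans and promoters were of GRCh38.p14, without exons. Comparison shares used all other genes in 5 density bins, and no lists were drawn. All members are accounted for, and positions are given for up to 12 members with genotype-only regions. The members and lists were chosen with earlier results of these data known, and the splits inside and outside genes, start-peak edges and lengths inside genes after seeing these data.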

Additional observations from a re-analysis of the deposited data

How the results depend on the processing

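No paired analysis was possible because each genotype had 1 peak list, which for the same reason allowed no replicate to be left out. Regions away from gene ends were 47.2% control-only and 8.33% knockout-only, a difference of 38.9 percentage points. Among 12 other settings, 9 left both shares within the exact 95% intervals of the reported ones and the difference between 25.6 and 42.1. The low end, with the nearest gene taken by gene end, had 41.0% control-only and 15.4% knockout-only. Some of the 9 settings could not change the counts. No region lay beyond the reach of 50 kb, and none was tied. No genotype-only region had a peak of the other list within 1 kb, so counting such regions as shared changed nothing. With a −log10 q of at least 5 they were 6.67%, 40.0% and −33.3, with the 30000 peaks of highest fold 17.6%, 29.4% and −11.8, and with strong regions alone 0%, 0% and 0. The control-only share inside genes was then 0%, 33.3% and 0%. Both stricter peak sets leave out weak peaks, and the members' control-only regions were weak. Both also class a shared region as genotype-only where the peak of only 1 list is left out. The shares of genes of like density (18.4% and 23.4%) came to 18.8% and 22.2% with neighbours counted within 250 kb, 19.4% and 21.1% on the same chromosomes, and 26.7% and 31.9% for regions of like fold. The number of members with an end peak in both lists was 36 or 37 under 5 settings. The share with longer control peaks inside the gene (88.2%) ranged from 78.8% to 88.9% under 5 settings chosen after seeing the data. The share with the gene-side edge farther in control was 81.3% (26 of 32), and 83.9% (26 of 31) under both stricter peak sets. Those sets leave out whole peaks and move no edge, so they could hardly change this share and are no check of it. Library depth was not given in the sources used here, so a missing weak peak cannot be told from one under the caller's threshold.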
